A study of Homo sapiens with 8 samples.

Results

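Transcripts of 41 lysosomal genes were followed in 8 RNA sequencing libraries. The labels name the cells as THP1, an established human line from a monocytic leukaemia. The genes were chosen by name and comprise cathepsins, glycosidases, sulfatases, lipid hydrolases with their activator and transfer proteins, proteins of the lysosomal membrane, and TFEB, a transcription factor of lysosomal genes. All 41 were found by Ensembl identifier among the 34618 genes of the deposited tables, and all 41 passed the filter on low counts. In the RRM2_OE group, 4 libraries came from cells engineered with the iRxI/AxA mutant, and in the MOCK group 4 came from cells engineered with empty vector. Both groups received doxycycline at 2 µg/mL in medium with Tet-system approved serum. The labels use RRM2 OE and iRxI/AxA mutant for the same samples, state neither the promoter of the construct nor whether the cells were a clone, and do not say whether replicates were separate cultures. The p-values therefore cover the spread among these libraries, which may be technical.

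The lysosome is an acidic organelle in which proteins, glycans and lipids are broken down. Most of its soluble enzymes receive a mannose 6-phosphate tag in the Golgi and are carried to it by receptors, while a set of heavily glycosylated membrane proteins shields the bounding membrane. TFEB and its relatives bind a short palindromic element in many lysosomal promoters and raise these genes together when nutrients are scarce or lysosomes are damaged, and monocytes and macrophages are known for a large lysosomal compartment.

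Library totals lay between 10994255 and 11686152 counts, and no member fell below 80 counts in any library. RRM2, the small subunit of ribonucleotide reductase, averaged 225 ± 8.33 CPM (counts relative to the scaled library size) in RRM2_OE and 123 ± 5.35 CPM in MOCK (SD, n = 4 each), and the counts do not separate an introduced from a resident copy. Monocyte markers were present, with LYZ at 1595 to 2307 CPM, although CD68 lay at 0.265 to 1.13 CPM under a gene that overlaps it on the same strand. CDKN2A, which is commonly described as deleted in THP1, lay at 44.6 to 56.3 CPM, so every library goes against the label in this marker. It was 1 of 5 genes looked up for this line, with HOXA9, MEIS1, MLLT3 and KMT2A. All 5 averaged 1 CPM or more in MOCK. Together they summed to 290 to 324 CPM in RRM2_OE and 303 to 339 CPM in MOCK. The erythroid and megakaryocyte genes GATA1 (96.1 to 114 CPM) and ITGA2B (325 to 381 CPM) were present too. Libraries numbered 1 and 3 stood apart from those numbered 2 and 4 in both groups: deviations from the group means correlated at 0.225 to 0.294 between groups for like parity and at -0.276 to -0.212 for unlike parity. Results that rest on this split are therefore given with replicate number as a block in the fit, and for some members also within odd and even numbers. Members that passed only with the block did not all pass inside each parity.

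The promoter windows of 5 members are shown because they carry, or lack, the element through which TFEB acts. TCACGTGA, the centre of that element, and the shorter TCACGTG and CACGTG, which it contains, were searched on both strands in RefSeq windows of build GRCh38.p14 that run from 250 bases before to 50 bases after a start site. Windows were found for 30 of the 41 members, and the other 11 were CTSB, PSAP, NAGLU, SGSH, CTSK, CTSS, MANBA, LAMP2, ASAH1, ARSA and HEXA. Of the 30, 5 held TCACGTGA in a window (16.7%, against 1.18% of 27305 genes in the table), 8 held TCACGTG (26.7% against 4.49%) and 9 held CACGTG (30% against 8.77%). The genes in that table were not filtered by expression, whereas all members passed the filter on low counts. The 200 bases before the start are printed 5′ to 3′, with CACGTG and an adjoining T or A in capitals. MCOLN1 (chr19:7522424-7522623, plus strand) holds TCACGTGA and NEU1 (chr6:31862822-31863021, minus strand) the shorter TCACGTG, and both transcripts rose in RRM2_OE. FUCA1 (chr1:23868291-23868490, minus strand) rose and holds none of the 3 motifs in this window. LAMP1 (chr13:113297039-113297238, plus strand) and GAA (chr17:80101381-80101580, plus strand) hold TCACGTGA and did not pass the test.
MCOLN1: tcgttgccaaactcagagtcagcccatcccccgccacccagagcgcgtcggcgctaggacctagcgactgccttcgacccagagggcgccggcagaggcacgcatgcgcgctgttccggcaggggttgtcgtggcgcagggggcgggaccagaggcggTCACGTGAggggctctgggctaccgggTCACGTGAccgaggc
NEU1: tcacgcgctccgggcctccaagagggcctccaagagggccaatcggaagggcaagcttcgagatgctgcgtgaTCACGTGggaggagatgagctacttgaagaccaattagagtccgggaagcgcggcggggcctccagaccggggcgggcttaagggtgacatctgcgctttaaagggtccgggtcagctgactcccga
FUCA1: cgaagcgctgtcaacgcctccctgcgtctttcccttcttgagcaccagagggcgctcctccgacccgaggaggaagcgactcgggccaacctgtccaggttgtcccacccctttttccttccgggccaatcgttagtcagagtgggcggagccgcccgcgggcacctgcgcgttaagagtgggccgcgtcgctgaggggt
LAMP1: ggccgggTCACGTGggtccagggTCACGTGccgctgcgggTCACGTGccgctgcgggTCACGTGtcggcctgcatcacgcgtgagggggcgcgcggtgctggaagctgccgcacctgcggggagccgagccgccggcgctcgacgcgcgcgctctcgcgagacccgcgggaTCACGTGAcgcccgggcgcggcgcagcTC
GAA: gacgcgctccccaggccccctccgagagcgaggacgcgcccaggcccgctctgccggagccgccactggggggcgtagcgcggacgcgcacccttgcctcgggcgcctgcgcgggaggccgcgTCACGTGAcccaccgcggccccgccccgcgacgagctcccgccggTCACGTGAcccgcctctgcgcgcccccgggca

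The centres of the CACGTG matches lay at -38 and -11 bases from the start in MCOLN1, at -73 and -28 in GAA and at -123 in NEU1. LAMP1 held 6, at -189, -173, -156, -139, -25 and 2, the last of which runs past the printed stretch. Among the 5 members with TCACGTGA, the log2 fold change of RRM2_OE over MOCK was 0.24 for MCOLN1, 0.07 for GAA, 0.04 for GALNS, 0.01 for LAMP1 and 0.00 for CTSA, with a median of 0.04, and over the 25 other members with a window the median was 0.08. A match of letters is a description of the window and does not show binding. Of the 5 members with a window that rose without the block, 1 (MCOLN1) held TCACGTGA and 2 (MCOLN1 and NEU1) held TCACGTG, while FUCA1, FUCA2 and CTSH held none of the motifs. Among the 17 members with a window that were not called with the block either, 4 held TCACGTGA (23.5%) and 6 held TCACGTG (35.3%).

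Levels per length are given in the authors' RPKM, which divide a gene's counts by its total exon length in the table and by the library total. Cathepsin D (CTSD), the main aspartic protease of lysosomes, stood highest in MOCK, at 445 ± 53.7 RPKM in RRM2_OE and 440 ± 47 RPKM in MOCK (SD, n = 4 each). Prosaposin (PSAP), the precursor of the saposins that present sphingolipids to their hydrolases, came next at 458 ± 42 RPKM in RRM2_OE and 412 ± 45.1 RPKM in MOCK, within the spread of CTSD. They were followed in MOCK by cathepsin Z (CTSZ) at 245 ± 23.2 RPKM, tripeptidyl peptidase (TPP1) at 227 ± 29.6 RPKM, the tetraspanin CD63 at 188 ± 19.6 RPKM and cathepsin B (CTSB) at 177 ± 16.6 RPKM, neighbours whose spreads overlap. The heparan sulfatase SGSH, at 2.05 ± 0.167 RPKM in RRM2_OE and 1.66 ± 0.136 RPKM in MOCK, and TFEB, at 1.81 ± 0.176 RPKM in RRM2_OE and 1.44 ± 0.141 RPKM in MOCK, stood lowest. The 41 members together took 1.24% to 1.28% of all counts in RRM2_OE libraries and 1.2% to 1.23% in MOCK libraries, and no test was made of this sum. In RNA from whole cultures, more of a transcript per cell and more cells that carry it cannot be told apart.

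**Figure D1:**
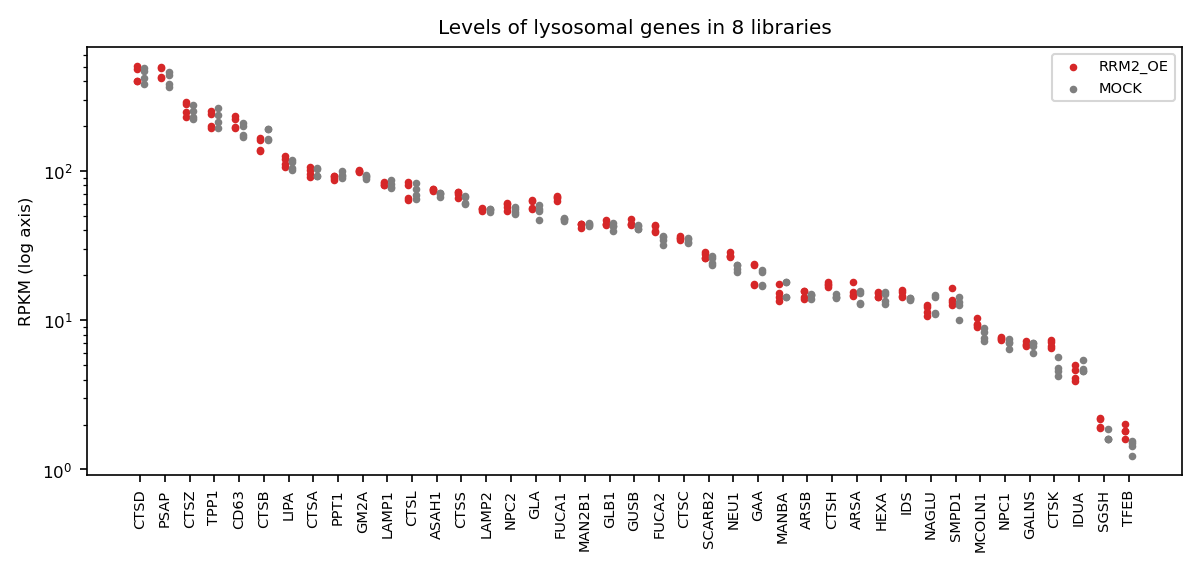
RPKM of the 41 lysosomal genes on a log axis, 1 point per library, ordered by mean MOCK level, with RRM2_OE points left of MOCK points. Levels run from CTSD (445 RPKM in RRM2_OE, 440 RPKM in MOCK) to TFEB (1.81 RPKM in RRM2_OE, 1.44 RPKM in MOCK), and the groups lie close together for most genes.

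A small part of the members rose in RRM2_OE and none fell. Of 41, 6 were higher and 0 lower at an adjusted p below 0.05 (edgeR's quasi-likelihood test, Benjamini-Hochberg over 15286 genes). Of all genes tested, 7.41% were higher and 5.42% lower in the same fit, 12.8% in either direction, and of the members 14.6% were higher. At an unadjusted p below 0.05 in this fit, 1 member (CTSB) lay below MOCK. Above MOCK at this threshold were the 6 and SGSH, TFEB, GM2A, CTSS, CD63 and GLA. The share over all genes at the unadjusted threshold was not counted. DESeq2 called 5 members higher and 0 lower, beside 942 higher and 759 lower over all genes. The median log2 fold change over the members was 0.08, beside -0.00 over all genes tested. Of the 41 values 33 were positive (80.5%, against 49.4% of all genes tested). Members were more abundant than most genes, with a median MOCK level of 147 CPM against 24.5 CPM over all genes tested. The groups did not overlap for 9 members, all with RRM2_OE above (22%, against 10.5% of all genes tested). With replicate number as a block, 18 members were higher and 3 lower, against 15.1% and 14% of all genes tested and 29.1% in either direction.

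**Figure D2:**
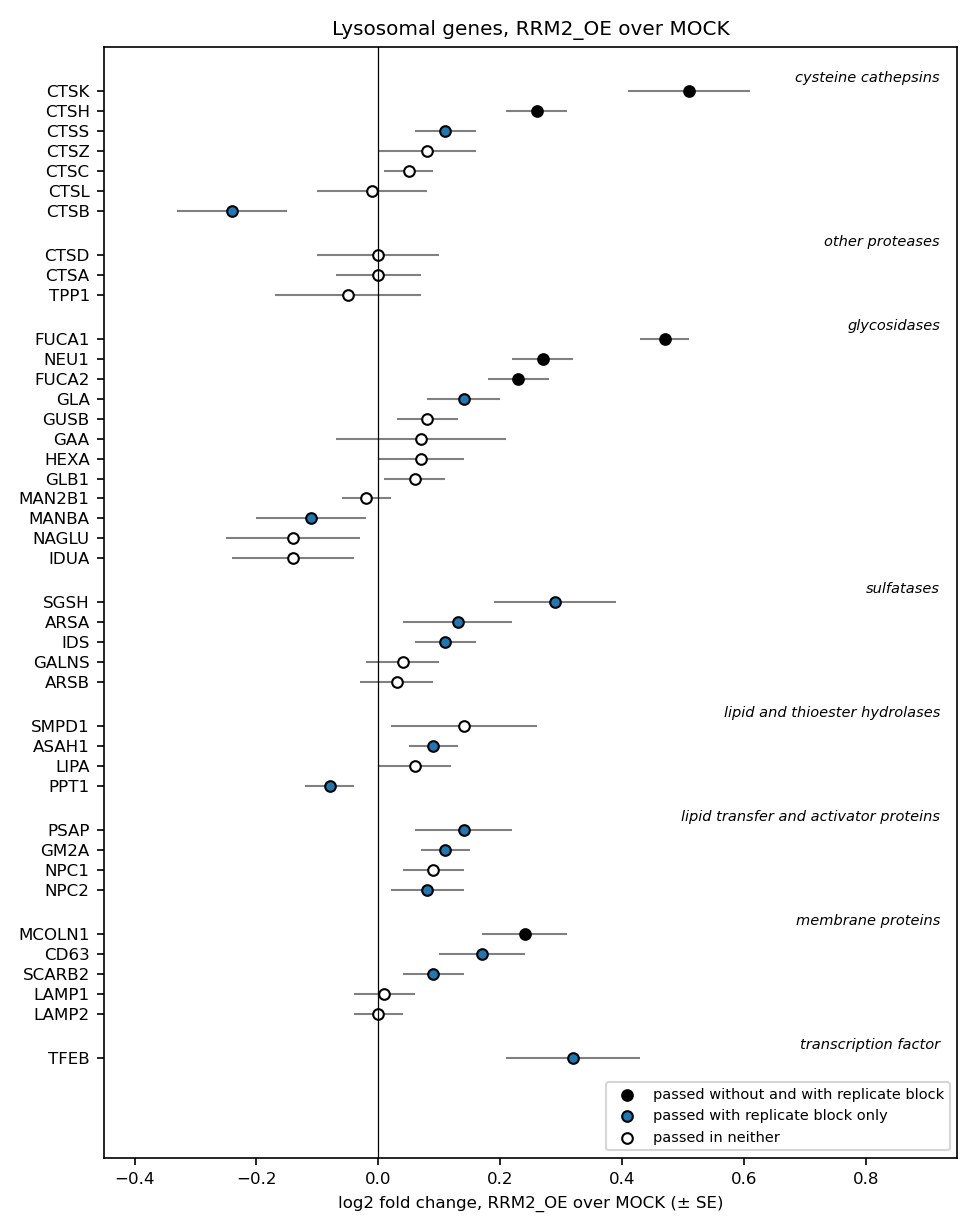
Log2 fold change of RRM2_OE over MOCK with its standard error for the 41 lysosomal genes, grouped by role. The 6 filled black points, from MCOLN1 (0.24) and FUCA2 (0.23) to FUCA1 (0.47) and CTSK (0.51), passed in both fits, and the blue points, such as CTSB (-0.24), passed with the replicate block only.

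Among the glycosidases, which strip sugars from glycoproteins and glycolipids, 3 of 12 rose and 0 fell. FUCA1 (ENSG00000179163, hg19 chromosome 1, 24171567 to 24194784), the tissue fucosidase that is also described as a p53-induced gene, gave 141, 133, 130 and 136 CPM in RRM2_OE replicates 1 to 4, against 97.8, 97.7, 98.8 and 96.3 CPM in MOCK replicates 1 to 4. Every RRM2_OE library lay above every MOCK library, and the gap was far wider than the spread inside either group. Its log2 fold change was 0.47 (SE 0.04, 1.38-fold, adjusted p = 2.93e-05, edgeR), the smallest adjusted p among the members. The secreted paralogue FUCA2 gave 123, 131, 124 and 133 CPM in RRM2_OE, against 102, 109, 113 and 113 CPM in MOCK. It rose by 0.23 on the log2 scale (SE 0.05, adjusted p = 0.00976, edgeR), again without overlap of the groups. NEU1, the lysosomal sialidase, which works in a complex with the protective protein CTSA, gave 130, 135, 131 and 129 CPM in RRM2_OE and 109, 114, 102 and 111 CPM in MOCK, a log2 rise of 0.27 (SE 0.05, adjusted p = 0.00236, edgeR). All RRM2_OE libraries exceeded all MOCK libraries for NEU1, whereas its partner CTSA averaged 577 ± 47 CPM in RRM2_OE and 577 ± 44 CPM in MOCK.

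The 9 other glycosidases did not pass. The alpha-galactosidase GLA averaged 123 ± 7.38 CPM in RRM2_OE and 112 ± 8.76 CPM in MOCK (log2 fold change 0.14, adjusted p = 0.16, edgeR), and with the block it passed as higher (adjusted p = 0.00181). MANBA, the beta-mannosidase, averaged 127 ± 12.5 CPM in RRM2_OE and 137 ± 17.3 CPM in MOCK (-0.11, adjusted p = 0.491) and passed as lower with the block (adjusted p = 0.0272, edgeR). The beta-glucuronidase GUSB (0.08), the beta-galactosidase GLB1 (0.06), HEXA (0.07), which encodes the alpha chain of beta-hexosaminidase, and the acid alpha-glucosidase GAA (0.07) lay slightly above 0 on the log2 scale. MAN2B1, the acid alpha-mannosidase, was at -0.02, and both heparan sulfate enzymes IDUA and NAGLU were at -0.14. GUSB has a measured pseudogene copy, GUSBP11, at 22.3 to 28.4 CPM, and how reads that match both were counted is not stated.

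Of the 7 cysteine cathepsins, papain-like proteases of the lysosome, 2 rose and 0 fell. Cathepsin K (CTSK, chromosome 1, 150768684 to 150780799), the collagen-degrading protease of osteoclasts, gave 13.6, 12.1, 12.7 and 13.7 CPM in RRM2_OE, against 8.19, 10.9, 8.69 and 8.88 CPM in MOCK. It had the largest fold change of the 41 genes at one of the lowest levels (log2 fold change 0.51, SE 0.10, adjusted p = 0.00702, edgeR), and MOCK replicate 2 came closest to the RRM2_OE values. Replicates 1 and 3 alone gave CTSK a log2 fold change of 0.64, and replicates 2 and 4 alone gave 0.39. Cathepsin H (CTSH), an aminopeptidase, gave 107, 99.3, 104 and 96.4 CPM in RRM2_OE and 86.1, 83.1, 84.2 and 86.7 CPM in MOCK (0.26, SE 0.05, adjusted p = 0.00349, edgeR), without overlap.

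CTSB, the most abundant cysteine cathepsin transcript by counts, pointed the other way. It gave 1211, 990, 1243 and 1022 CPM in RRM2_OE, against 1462, 1232, 1421 and 1176 CPM in MOCK. Odd-numbered libraries were higher in both groups and the groups overlapped over all 8 libraries, but RRM2_OE lay below MOCK without overlap inside the odd numbers and inside the even numbers. The log2 fold change of -0.24 (SE 0.09) did not pass without the block (adjusted p = 0.106, edgeR) and was -0.25 (SE 0.03, adjusted p = 8.12e-09) with it. Fitted on replicates 1 and 3 alone it was -0.24 (adjusted p = 1.82e-06), and on replicates 2 and 4 alone -0.26 (adjusted p = 2.65e-07, edgeR). CTSB, PPT1 and MANBA were the 3 members that fell in the blocked fit.

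Cathepsin S (CTSS), which trims the invariant chain of class II molecules, averaged 296 ± 9.54 CPM in RRM2_OE and 273 ± 14.6 CPM in MOCK (0.11, adjusted p = 0.153) and passed with the block (adjusted p = 0.00196, edgeR). CTSC, which activates granule proteases, was at 0.05, CTSZ at 0.08 and CTSL, a broad endopeptidase, at -0.01 on the log2 scale, and none of the 3 passed in either fit. The remaining proteases CTSA, CTSD and TPP1 gave 0.00, 0.00 and -0.05 with standard errors of 0.07, 0.10 and 0.12, and the block called none of them. TPP1, which removes tripeptides from peptide ends, gave 1193, 929, 1245 and 968 CPM in RRM2_OE and 1323, 1054, 1164 and 939 CPM in MOCK. CTSD gave 1457, 1177, 1514 and 1184 CPM in RRM2_OE and 1506, 1265, 1408 and 1139 CPM in MOCK, so that the groups overlapped for both genes.

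**Figure D3:**
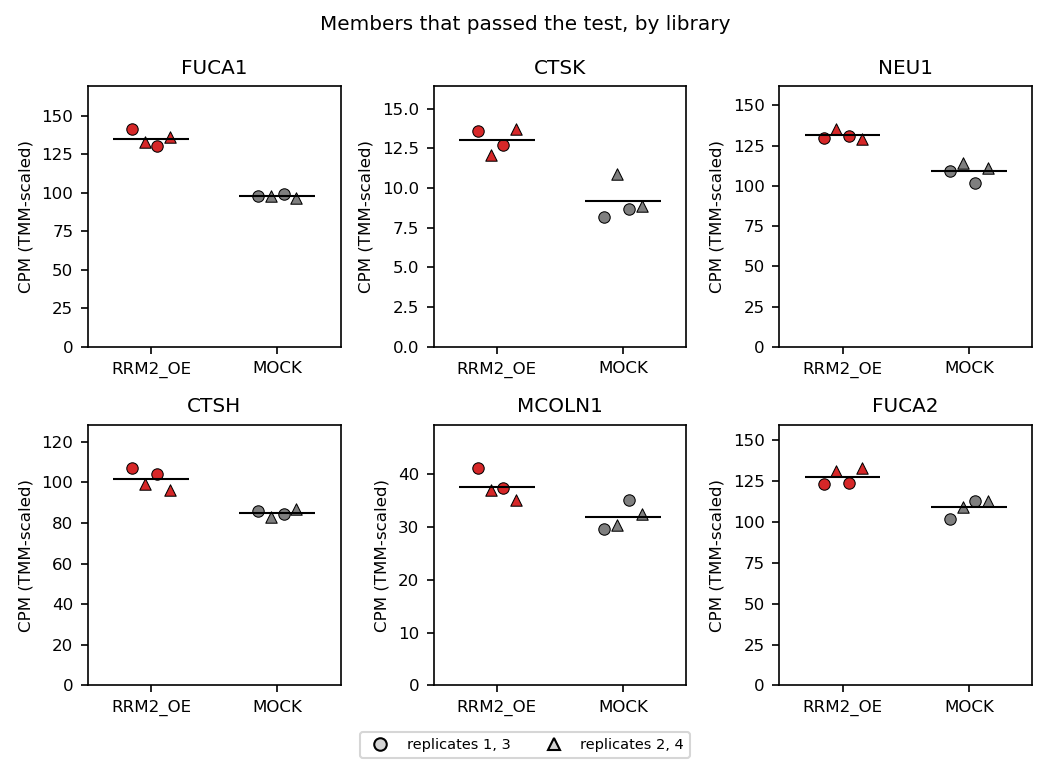
CPM on TMM-scaled library sizes in each library for the 6 members that passed, with circles for replicates 1 and 3, triangles for replicates 2 and 4 and bars at the group means. RRM2_OE libraries lie above MOCK libraries in all 6 panels, with FUCA1 at 130 to 141 CPM in RRM2_OE against 96.3 to 98.8 CPM in MOCK the widest apart relative to its spread.

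None of the 5 sulfatases passed without the block. SGSH came nearest, with 15.1, 12.5, 14.6 and 12.7 CPM in RRM2_OE against 11, 10.9, 12.5 and 10.5 CPM in MOCK. The lowest RRM2_OE library and the highest MOCK library lay at the same rounded value (log2 fold change 0.29, SE 0.10, adjusted p = 0.0693, edgeR), and with the block it passed (adjusted p = 0.0141). The span of SGSH overlaps CARD14 and SLC26A11 on the opposite strand, and whether counting used strand is not known here. ARSA, the cerebroside sulfatase, at 0.13, and IDS, the iduronate sulfatase, at 0.11, passed as higher only with the block (adjusted p = 0.0448 and adjusted p = 0.0145, edgeR), while ARSB (0.03) and GALNS (0.04) passed in neither fit.

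Lipid hydrolases and their helper proteins moved little. The acid ceramidase ASAH1 gave 383, 376, 372 and 370 CPM in RRM2_OE, against 347, 361, 353 and 355 CPM in MOCK. Its groups did not overlap, but the log2 fold change of 0.09 (SE 0.04) did not pass (adjusted p = 0.193, edgeR), and with the block it did (adjusted p = 0.0129). The palmitoyl-protein thioesterase PPT1 averaged 296 ± 5.12 CPM in RRM2_OE and 313 ± 12.1 CPM in MOCK (-0.08, adjusted p = 0.265), and was lower with the block (adjusted p = 0.0299, edgeR). The acid sphingomyelinase SMPD1 (0.14) and the acid lipase LIPA (0.06) passed in neither fit, and LIPA overlaps IFIT genes on the opposite strand. GM2A, the activator of ganglioside breakdown, gave 446, 439, 450 and 444 CPM in RRM2_OE, against 428, 421, 408 and 391 CPM in MOCK (log2 fold change 0.11, SE 0.04, adjusted p = 0.119, edgeR). The RRM2_OE libraries all exceeded the MOCK libraries, and the blocked fit called GM2A higher (adjusted p = 0.00168).

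PSAP gave 1386, 1576, 1357 and 1565 CPM in RRM2_OE, against 1217, 1433, 1232 and 1463 CPM in MOCK. Here the even-numbered libraries were the higher ones in both groups, so the groups overlapped, yet RRM2_OE exceeded MOCK inside each parity. The log2 fold change was 0.14 (SE 0.08, adjusted p = 0.266) and, with the block, 0.14 (SE 0.03, adjusted p = 6.24e-05, edgeR). NPC1 (0.09) and NPC2 (0.08), which together move cholesterol out of the lysosome, were close to each other. Of these, NPC2 passed with the block (adjusted p = 0.0483, edgeR) and NPC1 did not (adjusted p = 0.105).

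Among the membrane proteins, 1 of 5 rose. MCOLN1 (chromosome 19, 7587512 to 7598895), the calcium channel of the lysosomal membrane, gave 41.1, 36.9, 37.3 and 35.1 CPM in RRM2_OE, against 29.5, 30.4, 35 and 32.5 CPM in MOCK. RRM2_OE replicate 4 and MOCK replicate 3 all but touched. Its rise of 0.24 on the log2 scale (SE 0.07, adjusted p = 0.0471, edgeR) had the largest adjusted p of the 6. Without any single library other than MOCK replicate 3 it no longer passed (adjusted p of 0.0502 to 0.135 in these 7 fits, edgeR), nor did it with DESeq2. The span of MCOLN1 overlaps PNPLA6 on the same strand.

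CD63, a tetraspanin of late endosomes that is also used as a marker of granule release, gave 526, 604, 517 and 582 CPM in RRM2_OE, against 454, 531, 460 and 541 CPM in MOCK. As with PSAP, even-numbered libraries were higher in both groups and RRM2_OE was higher inside each parity (log2 fold change 0.17, SE 0.07, adjusted p = 0.153; with the block SE 0.03, adjusted p = 5.47e-06, edgeR). The glucocerebrosidase receptor SCARB2 averaged 154 ± 5.44 CPM in RRM2_OE and 144 ± 8.49 CPM in MOCK (0.09, adjusted p = 0.261) and passed with the block (adjusted p = 0.0228, edgeR). LAMP1 and LAMP2, the major glycoproteins of the lysosomal membrane, gave 0.01 (SE 0.05) and 0.00 (SE 0.04). LAMP2 averaged 310 ± 4.26 CPM in RRM2_OE and 309 ± 4.08 CPM in MOCK, and neither gene passed with the block.

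TFEB (chromosome 6, 41651716 to 41703997) gave 10.4, 10, 11.5 and 8.9 CPM in RRM2_OE, against 9.07, 7.08, 8.06 and 8.43 CPM in MOCK. RRM2_OE replicate 4 lay below MOCK replicate 1, so the groups overlapped by that library. Its log2 fold change of 0.32 (SE 0.11) did not pass (adjusted p = 0.0827, edgeR) and passed with the block (adjusted p = 0.0236). It was 0.35 inside the odd numbers (adjusted p = 0.0885) and 0.29 inside the even numbers (adjusted p = 0.225, edgeR), and passed in neither. These are transcript levels, whereas TFEB is known to be controlled mainly through its location in the cell.

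Odd- and even-numbered libraries differed in many members, in both directions. In a fit with both terms, 15 members stood higher in odd numbers and 9 stood lower (36.6% and 22%, against 15.4% and 15% of all genes tested, edgeR). Odd and even libraries did not overlap for 13 members with odd above (9.61% of all genes tested) and 5 with odd below (9.71%). GAA showed the widest gap, with 121 and 123 CPM in RRM2_OE replicates 1 and 3 and 87.5 and 88.7 CPM in RRM2_OE replicates 2 and 4, and with 114 and 108 CPM in MOCK replicates 1 and 3 and 89.6 and 86.7 CPM in MOCK replicates 2 and 4. Its log2 fold change of odd over even was 0.40 (SE 0.04, adjusted p = 4.02e-13, edgeR). All 3 of the non-cysteine proteases were higher in odd numbers, TPP1 by 0.34, CTSD by 0.30 and CTSA by 0.19 on the log2 scale. So were, among others, NAGLU (0.32), SMPD1 (0.28), CTSB (0.27) and ARSA (0.24). Lower in odd numbers were CTSL (-0.26), MANBA (-0.25), PSAP (-0.22), CTSZ (-0.21), CD63 (-0.21), GLA (-0.15), LIPA (-0.15), SCARB2 (-0.10) and CTSS (-0.09).

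The labels do not say what odd and even numbers mark. Mitochondrial genes took 8.02% to 9.51% of counts in odd-numbered libraries and 6.43% to 7.69% in even-numbered ones, and the part of this in the members' differences was not tested. None of the 6 members that rose without the block was called between odd and even numbers, with log2 fold changes of odd over even of 0.01 for FUCA1, 0.06 for CTSH, 0.08 for MCOLN1, -0.05 for NEU1, -0.07 for FUCA2 and -0.08 for CTSK. Without the block, a difference between odd and even numbers widens the spread inside each group. Members with such a difference pass less easily, so this absence was partly set by how the 6 were selected. Of the 18 members higher with the block, 3 were higher and 5 lower in odd numbers. The group difference itself was not found to depend on parity: the interaction was called for 0 of 15286 genes (edgeR, also with RLE factors), with 491 genes (3.21%) and 0 members at an unadjusted p below 0.05. Inside odd and inside even numbers alike, RRM2_OE lay above MOCK without overlap for 22 members (53.7%, against 17.4% of all genes tested) and below it for 2 (4.88%, against 16.6%).

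**Figure D4:**
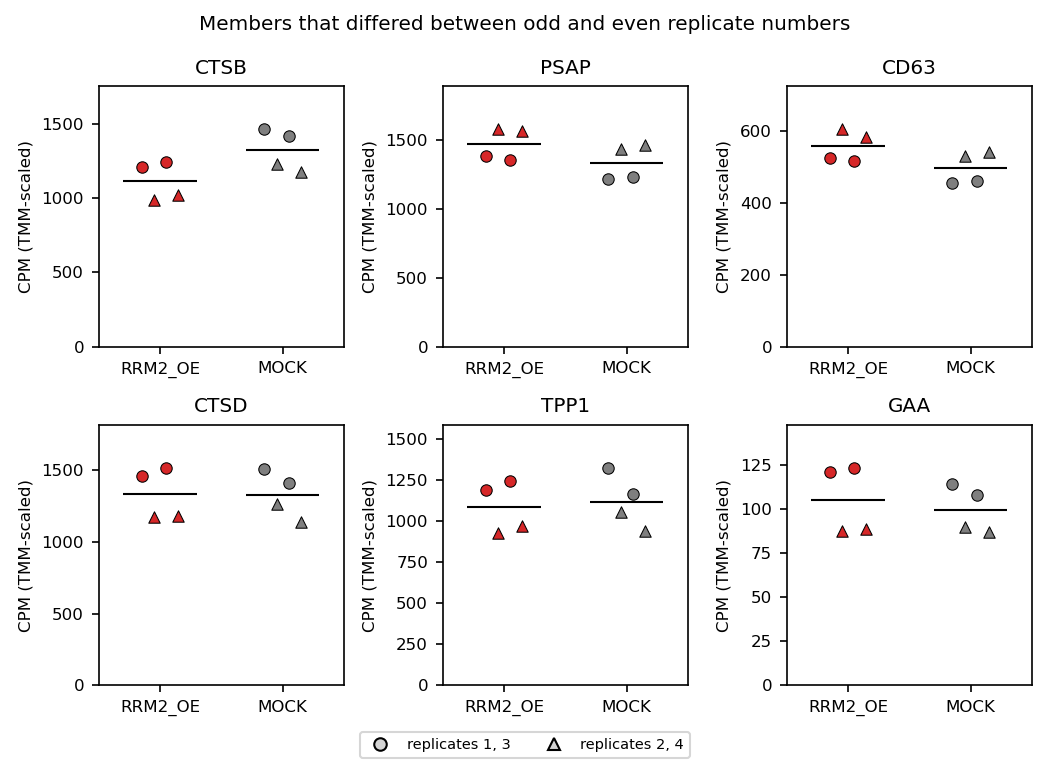
CPM on TMM-scaled library sizes in each library for 6 members chosen after their values were seen, with circles for replicates 1 and 3, triangles for replicates 2 and 4 and bars at the group means. Circles lie above triangles within each group for CTSB, CTSD, TPP1 and GAA and below them for PSAP and CD63; within one marker shape, RRM2_OE lies below MOCK for CTSB and above it for PSAP and CD63.

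**Figure D5:**
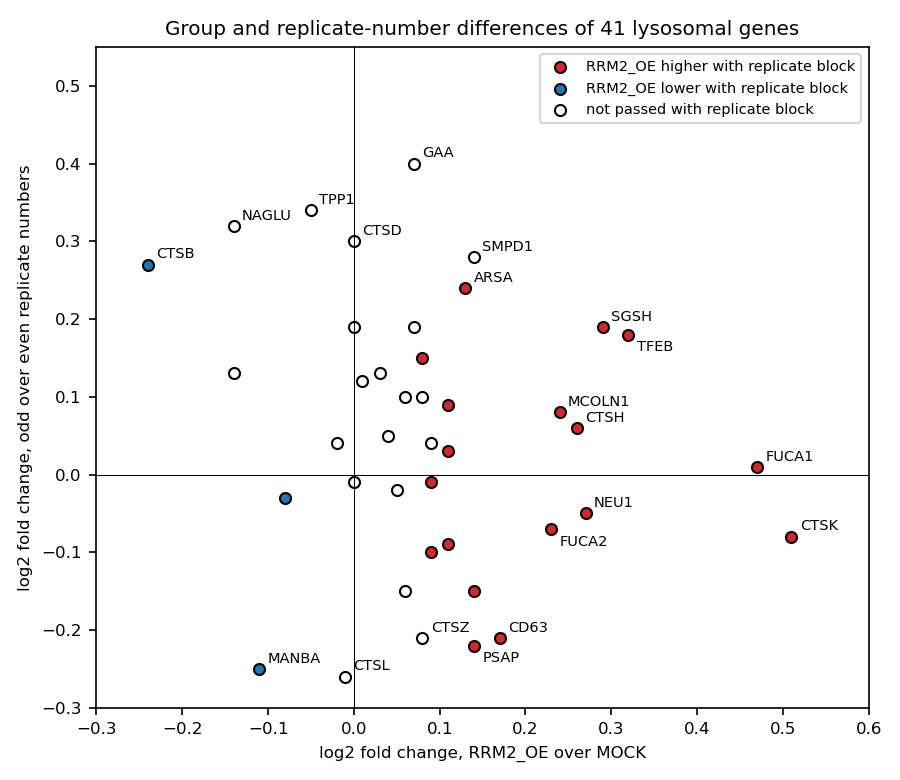
Log2 fold change of RRM2_OE over MOCK on the horizontal axis and of odd over even replicate numbers on the vertical axis, 1 point per lysosomal gene. The genes with the largest group difference, CTSK (0.51) and FUCA1 (0.47), sit near 0 on the vertical axis, and GAA (0.40), TPP1 (0.34) and CTSD (0.30) sit near 0 on the horizontal axis. CTSB (-0.24 on the horizontal and 0.27 on the vertical axis) lies away from 0 on both.

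Other genes of the lysosomal system were read from lists of the same kind, and no list was tested as a set. For comparison with the counts that follow, 7.41% of all genes tested were higher and 5.42% lower without the block. With the block the shares were 15.1% and 14%. Of 27 further hydrolases and activators tested, 5 rose and 0 fell, with a median log2 fold change of 0.12, and 12 rose with the block. ACP5, the tartrate-resistant acid phosphatase of osteoclasts and macrophages, averaged 390 ± 15 CPM in RRM2_OE and 307 ± 11.5 CPM in MOCK (0.35, adjusted p = 4.22e-04, edgeR). Of 27 carriers and other membrane proteins, 2 rose and 0 fell: OSTM1, the partner of a lysosomal chloride exchanger, by 0.30 and the intramembrane protease SPPL2A by 0.27 on the log2 scale, while with the block 14 rose and 3 fell. Of 18 subunits of the V-ATPase, the proton pump that acidifies lysosomes, 3 rose and 0 fell, among them ATP6AP2 (0.20) and ATP6V1E1 (0.20), and 9 rose with the block. ATP6V0C, at 0.0867 to 0.538 CPM under overlapping genes of its strand, was not tested.

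Of 24 sorting genes, among them the mannose 6-phosphate receptors, 0 rose and 1 fell: SORL1, a sorting receptor of the Golgi and endosomes, averaged 95.3 ± 2.36 CPM in RRM2_OE and 147 ± 3.37 CPM in MOCK (-0.62, SE 0.04, adjusted p = 2.64e-06, edgeR). With the block 4 sorting genes rose and 2 fell. Of 21 genes of the Rag-Ragulator and mTORC1 system, 2 rose and 0 fell, and both were sestrins, known as p53-induced or stress-induced inhibitors of mTORC1: SESN2 by 0.78 (adjusted p = 0.00142) and SESN1 by 0.59 (adjusted p = 2.41e-05, edgeR). With the block 4 of these rose and 5 fell. Of 28 genes of lysosome fusion and biogenesis, 1 rose and 2 fell, namely BLOC1S2 (0.39), a subunit of a biogenesis complex, LYST (-0.25), the regulator of lysosome size, and VAMP8 (-0.24), a fusion protein, and with the block 3 rose and 3 fell.

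Of 34 core autophagy genes, 3 rose and 2 fell, with MAP1LC3B (0.30), which coats autophagosomes, and the cargo receptor SQSTM1 (0.25) among the rises and ATG7 (-0.21) and PIK3C3 (-0.18) as the falls. With the block 7 rose and 5 fell. Without the block, 7.41% of all genes tested were higher and 5.42% lower. The counts for the carrier, sorting, Rag-Ragulator, fusion and autophagy lists lay near these shares. Of 7 genes of the TFEB family and its partners, 0 passed: TFE3 was at 0.15 (adjusted p = 0.0655, edgeR), MITF at 0.01 and TFEC at -0.10, and with the block 3 rose, TFEB, TFE3 and FNIP2, and FNIP1 fell.

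Markers of myeloid stage moved with the groups, and their part in the lysosomal differences was not tested. Of 18 tested monocyte and macrophage markers 9 rose and 0 fell, with a summed level of 3074 to 3272 CPM in RRM2_OE and 2442 to 2650 CPM in MOCK. Of 10 granulocyte precursor markers 0 rose and 7 fell, with a summed level of 2337 to 2714 CPM in RRM2_OE and 4933 to 5774 CPM in MOCK. Azurophil granules are themselves lysosome-related. Among T and NK markers 6 of 7 tested rose and 0 fell, with sums of 438 to 467 CPM in RRM2_OE and 345 to 349 CPM in MOCK; CD3G and CD2 were at 0 in some libraries. Summed B cell markers lay at 64.6 to 70.7 CPM in RRM2_OE and 155 to 172 CPM in MOCK, with 1 of 4 higher and 1 lower. Erythroid and megakaryocyte sums overlapped, at 578 to 615 CPM in RRM2_OE and 585 to 616 CPM in MOCK, with 2 of 9 higher and 3 lower. Epithelial and fibroblast markers summed to 47 to 52.2 CPM in RRM2_OE and 41.1 to 47.3 CPM in MOCK, with 2 of 4 higher and 0 lower; the epithelial keratin KRT19 was at 0 in all 8 libraries.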

How the data were processed

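Per the labels' protocols, 200 ng of total RNA per sample went into stranded mRNA libraries after poly(A) selection. The submitters' processing notes name the build hg19 (GRCh37) and the tools TopHat2, HTSeq 0.11.2 and bcl2fastq 2.18.0.12, without roles. No source used here states the gene annotation or the strand setting. The authors deposited raw counts per gene and RPKM, and the RPKM were recomputed from the counts to within 4.7e-06. Gene positions are those of the deposited tables. Of 34618 genes, 32562 were named from a table of current symbols and 299 more from GENCODE 29. Of 309 list entries 307 were matched; MRC1 and CASTOR2 were not.

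Counts were tested in edgeR 4.0.16 (R 4.3.3): filterByExpr kept 15286 genes, TMM factors scaled libraries, and RRM2_OE was set against MOCK by robust quasi-likelihood F tests without covariates. P-values were adjusted over these genes by Benjamini-Hochberg and read at 0.05. A standard error is the size of the log2 fold change divided by the root of its F. Alternatives used limma 3.58.1, DESeq2 1.42.0, other scalings and filters, log2(RPKM + 1) and log2(RPKM + 0.1), replicate number as a block, an odd/even term, and each library left out.

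Same-numbered libraries of the groups deviated together (correlations 0.251, 0.232, 0.225 and 0.228, all above 0.1), so the numbers were taken to pair the libraries and blocked values are given where they change a call; the pairing comes from the data, and only 1 of 8 libraries correlated best with its own number. Libraries of a group differed by more than sampling noise (chi-square per degree of freedom 1.47 to 2.9 for like parity and 6.18 to 12.01 for unlike), so none were merged.

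Members and lists were chosen with earlier results of these data known. Values in every library are given for members that passed, those highest and lowest in MOCK RPKM, TFEB, and in roles without a call the member with the smallest adjusted p; from each further list the 2 smallest adjusted p-values below 0.05 are named, except for 1 gene that is not reported here. Values of CTSB, PSAP, CD63 and GAA in every library, and the other genes named, were chosen after being seen. The spans of 6 members overlap another tested gene on the same strand (CTSB, CTSD, GLB1, MAN2B1, IDS and MCOLN1) and those of 13 on the opposite strand. Promoter sequences are RefSeq's (GRCh38.p14).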

Additional observations from a re-analysis of the deposited data

Results flagged for a closer look

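GALNS, a sulfatase of keratan sulfate breakdown, gave 51.2 CPM in MOCK replicate 2, against 58.2 to 58.9 CPM in the other 3 MOCK libraries, so that this library's gap to its nearest neighbour took up a share of 0.913 of the group's range. RRM2_OE libraries gave 55.7 to 60.5 CPM. This was 1 of 84 groups of 4 examined, and chance flags about 1 in 20.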

How the results depend on the processing

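Of the 6 members that rose, FUCA1, CTSK, NEU1, CTSH and FUCA2 kept direction and call under all 21 alternatives (largest adjusted p = 0.0439, CTSK), and MCOLN1 under 10 of them (adjusted p from 0.00125 to 0.135). Members higher, 6 in the fit without further terms, were 18 with the replicate block, 17 with the block and RLE factors together (added after seeing the data), 20 with an odd/even term and 11 in replicates 1 and 3 only; members lower, 0 without further terms, were 3, 3, 4 and 2 in these, and 2 in replicates 2 and 4 only. Leaving out single libraries gave 5 to 6 members higher and 0 lower. Over all genes, 1133 higher and 829 lower became 2303 and 2143 with the block, 2260 and 2197 with the block and RLE factors, 2427 and 2277 with the odd/even term, and 530 and 281 at an adjusted p below 0.01. On log2(RPKM + 1) 1017 were higher and 463 lower, and on log2(RPKM + 0.1) 999 and 453. Genes lower were 1330 in replicates 1 and 3 only and 1224 in replicates 2 and 4 only, and genes higher were 1470 and 1391. With single libraries left out, genes lower were 542 to 607, lowest without MOCK replicate 2 (542) and without RRM2_OE replicate 1 or 3 (545 each). Genes higher were then 808 to 937. The cause of these shifts was not tested. Odd over even gave 13 to 15 members higher and 9 lower with single libraries left out, against 15 and 9. Both groups held 4 libraries, and CTSK and TFEB, at about 10 CPM, had standard errors of 0.10 and 0.11 with the block, against 0.03 to 0.09 for the other members.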

Other observations

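Across the 41 members, the log2 fold change of odd over even libraries went with the GC content of the coding transcripts in GENCODE 29 (Pearson's r = 0.59, Spearman's rho = 0.62, across genes, which are not independent replicates and share the same 8 libraries). Over 12456 tested genes with a coding transcript the values were r = 0.33 and rho = 0.36. The 15 members higher in odd numbers had a median GC content of 56.1% and the 9 lower in odd numbers 48.9%, with overlapping ranges of 50.5% to 66% and 41.8% to 58.3%. For RRM2_OE over MOCK, r across the members was -0.10 (rho = -0.05).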
